A study of Mus musculus with 8 samples.

Results

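The genes described here are the cyclins, the cyclin-dependent kinases (CDKs) and the CDK inhibitors, 56 of 21883 protein-coding genes in the RefSeq annotation of mm10. They were chosen by symbol alone: Ccn followed by a letter, Cdk followed only by digits, or Cdkn, with Cdk5 left out. Sites of PRDM16 on chromatin were mapped by ChIP-seq, in which DNA cross-linked to a protein is pulled down with an antibody and sequenced, from whole mouse cortex at E15.5. The 2 conditional knockout (cKO) libraries came from embryos with 2 floxed Prdm16 alleles and Emx1Ires-Cre. This Cre acts in cells of dorsal telencephalic origin, so cells of other origin in the cortex keep an intact gene. The 2 wild-type (WT) libraries came from embryos homozygous for the same floxed alleles without Cre, so both genotypes carry floxed Prdm16. The labels do not say whether a library holds 1 embryo or several, so the spread between replicates may be technical. A region is an interval that the authors' peak caller called enriched in 1 library, and it was assigned to the gene that holds its summit or to the nearest protein-coding gene within 100 kb.

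CDKs are kinases that need a cyclin partner for activity. D-type cyclins with Cdk4 or Cdk6 start the inactivation of the retinoblastoma protein in G1, cyclin E and cyclin A with Cdk2 carry cells into and through S phase, and cyclin B with Cdk1 drives mitosis. The INK4 inhibitors bind Cdk4 and Cdk6, and the CIP/KIP inhibitors bind cyclin and CDK complexes. A second set, with Cdk7, Cdk8, Cdk9, Cdk12 and Cdk13, regulates transcription by RNA polymerase II, and another, with cyclin Y and the PFTAIRE and PCTAIRE kinases, acts at membranes and in postmitotic cells. In the embryonic cortex, radial glia divide at the ventricle, and the length of G1 and the choice of D-type cyclin are known to bear on whether their daughters divide again or become neurons. PRDM16 is a zinc-finger protein of radial glia.

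The cKO lists held 4553 and 3088 regions and the WT lists 13852 and 26652. An exact two-sided permutation test over the 4 libraries gave p = 0.3333, the smallest value that 2 against 2 allow. The lists give no read totals, but the median local background under the regions, a measure of depth, was 3.72 and 3.24 reads per base in cKO replicates 1 and 2 and 0.985 and 2.32 in WT replicates 1 and 2. The detection limit, the smallest fold over background that a library could call at its median background, was 3.18 and 3.30 in the cKO libraries, 3.53 and 3.01 in the WT libraries. The 2 genotypes carry different library identifiers, so genotype and anything that the identifier marks cannot be told apart. Peak lists measure no expression, so neither the loss of Prdm16 nor the tissue was checked against marker genes.

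The cyclin, CDK and inhibitor genes had fewer regions in the cKO lists. There were 21 and 12 regions in cKO replicates 1 and 2 and 45 and 78 in WT replicates 1 and 2. The mean was 16.5 ± 6.36 in cKO and 61.5 ± 23.3 in WT (SD, n = 2 each), a cKO over WT ratio of 0.268. The genotypes did not overlap, and no test over these genes was made. Over all regions assigned to a gene the ratio was 0.217. They took 0.488% and 0.414% of the assigned regions in the cKO libraries and 0.400% and 0.356% in the WT libraries. With each list shortened to its 3088 most significant regions the ratio turned round to 1.42, with 15 and 12 regions in the cKO lists and 10 and 9 in the WT lists.

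At least 1 region in any list was found at 31 of the 56 genes (55.4%), beside 43.9% of all protein-coding genes. Regions that both WT lists held and neither cKO list held, called WT-only here, were found at 11 of the 56 genes (19.6%), beside 16.6% of all genes, a share near the background. The 11 were Ccna1, Ccnd2, Ccnjl, Ccnq, Ccny, Cdk6, Cdk9, Cdk12, Cdk14, Cdk15 and Cdk17. Counting regions held by both WT lists whatever the cKO lists held, there were 14 genes (25.0%), beside 18.3% of all genes. At 4 of these (7.14%) such a region was also in a cKO list, beside 3.22% of all genes. Regions held by both cKO lists were found at 10 genes (17.9%), beside 6.83% of all genes. At 2 genes (3.57%), Ccnd3 and Cdk13, such a region was in neither WT list, beside 3.43% of all genes. Without WT replicate 1, genes with a WT-only region numbered 21 and genes with a region in the WT list left numbered 26. Without cKO replicate 2, genes with a region in the cKO list left numbered 16. With a library left out, no share over all genes was computed. The numbers of regions did not overlap between genotypes, with both cKO libraries below both WT libraries, at 11 genes (19.6%), beside 15.7% of all genes. The opposite order was found at 0 of the 56, beside 1.7% of all genes. By the exact permutation test per gene, adjusted by the Benjamini-Hochberg method, 0 of 9609 genes with a region passed; the smallest adjusted p was 0.840, and 0 genes had an unadjusted p under 0.05, which 2 libraries against 2 cannot reach.

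**Figure D1:**
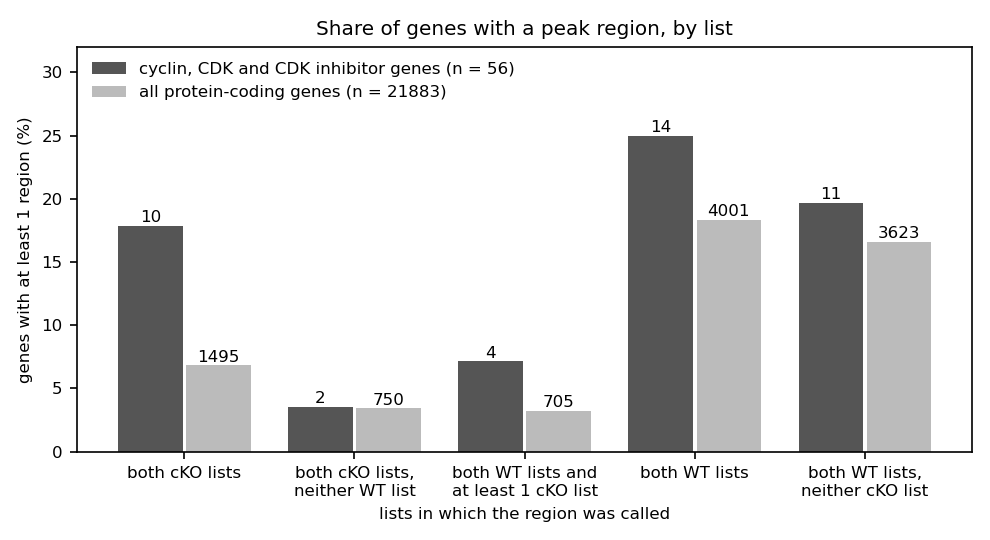
Share of genes with at least 1 region (y axis, percent) by the lists that held the region (x axis), for the 56 cyclin, CDK and CDK inhibitor genes (dark bars) and for all 21883 protein-coding genes (light bars); the number of genes stands on each bar. The dark and light bars are 17.9% and 6.83% for regions of both cKO lists, and 19.6% and 16.6% for regions of both WT lists and neither cKO list.

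The D-type cyclins, which pair with Cdk4 and Cdk6, all carried regions in both cKO lists (3 of 3), beside 6.83% of all genes, and Ccnd2 also carried WT-only regions. These 3 genes were counted together after the values were seen, and 3 genes are too few to set against that share. Ccnd1 held the strongest region around these genes called in all 4 libraries. Joined from the WT lists, it lay on chromosome 7 from 144943307 to 144943828, with its summit 3680 bp beyond the higher-coordinate end of the gene. Its fold enrichment was 28.9 and 18.2 in cKO replicates 1 and 2 and 24.3 and 19.3 in WT replicates 1 and 2. The folds of the genotypes overlapped: the highest and the lowest fold both came from the cKO libraries. The background there was 2.95 and 2.52 in cKO replicates 1 and 2 and 1.14 and 2.79 in WT replicates 1 and 2. Each fold adds 1 to reads and to background, which lowers it most in WT replicate 1. There were 113 and 63 reads at the summit in cKO replicates 1 and 2 and 51 and 72 in WT replicates 1 and 2. Without the added 1, reads over background were highest in WT replicate 1, so their order differs from that of the folds. With 95% Poisson intervals on the reads at the summit, which cover counting error only, the cKO folds span 23.8 to 34.7 and 14.1 to 23.2, and the WT folds 18.2 to 31.8 and 15.1 to 24.2. Among the 1723 regions held by both cKO lists it ranked 8, and among the 10090 held by both WT lists it ranked 349. Inside Ccnd1, cKO replicate 1 called a 5.07-fold region and WT replicate 1 called regions of 4.85-fold and 5.54-fold, and these 3 did not overlap each other.

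Ccnd2, whose product is a G1 cyclin of dividing radial glia, had 2 and 2 regions in cKO replicates 1 and 2 and 4 and 6 in WT replicates 1 and 2. The strongest was WT-only, from 127133491 to 127134850 on chromosome 6, with no call in either cKO list and 12.8-fold and 12.1-fold enrichment in WT replicates 1 and 2. It lay in the gene body, 9083 bp from the lower-coordinate end. The other 2 WT-only regions of Ccnd2 had 4.20 and 5.59 in the gene body and 5.07 and 4.69 at 1354 bp beyond the higher-coordinate end. A region from 127147627 to 127148143 was called in every library, with 3.22 and 4.15 in cKO and 5.46 and 4.94 in WT. Another in the gene body, from 127142163 to 127142410, was called in both cKO libraries (4.25 and 4.96) and in WT replicate 2 at 4.74. The gene thus held a strong site called in WT libraries alone beside weaker sites called in both genotypes. Ccnd3 had its cKO region from 47511199 to 47511542 on chromosome 17, with 5.38 and 6.46 in cKO replicates 1 and 2 and no overlapping WT call. Both cKO folds exceeded both WT detection limits. Divided by 2, the lower fold did so at 0 of the 2 regions of both cKO lists and neither WT list, at Ccnd3 and Cdk13. A weaker WT signal could thus have been missed. WT replicate 2 alone called 3 other regions in Ccnd3, of 4.80-fold to 6.11-fold.

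**Figure D2:**
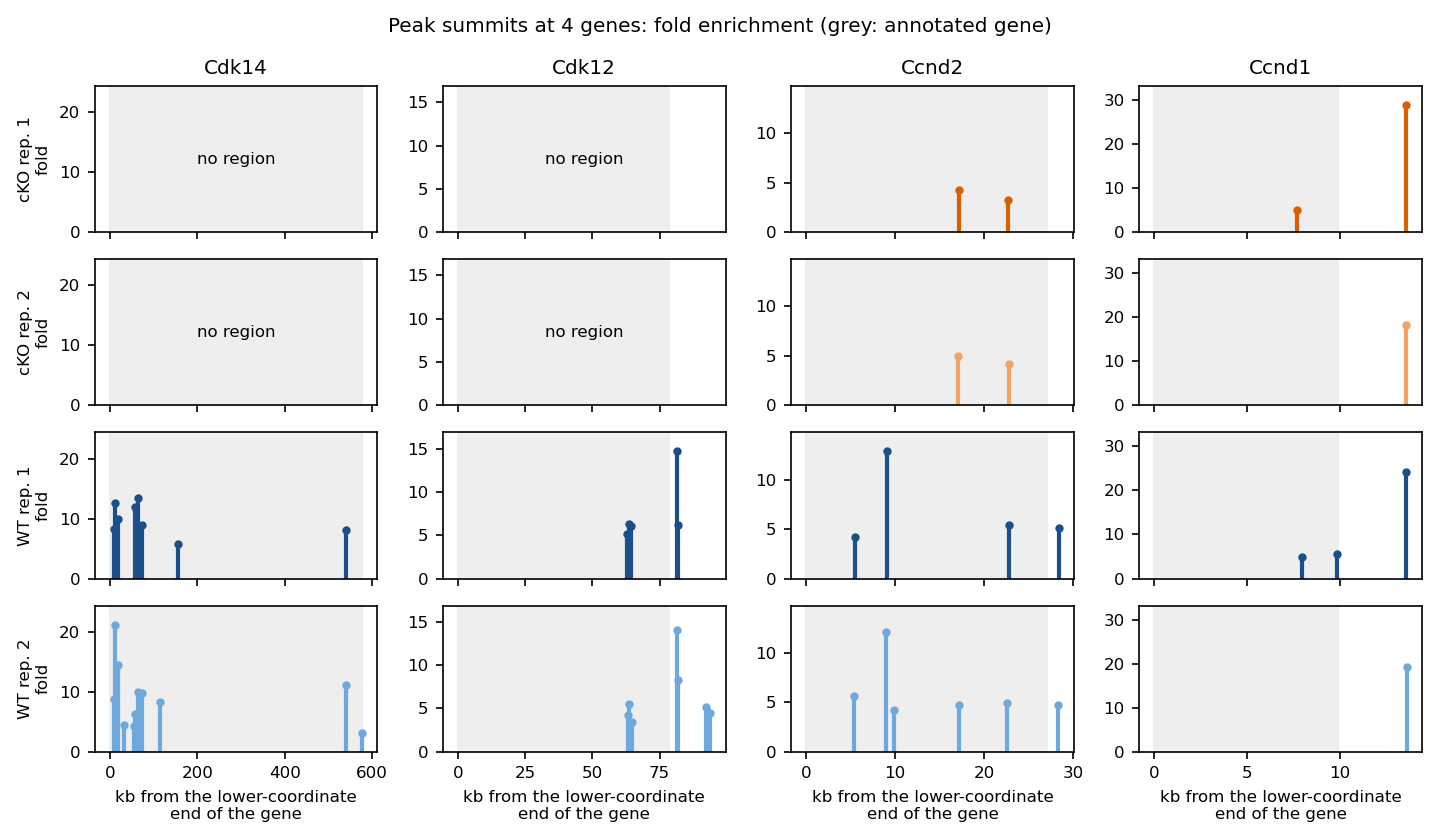
Summits of all regions assigned to Cdk14, Cdk12, Ccnd2 and Ccnd1 (columns) in cKO and WT libraries (rows, cKO above WT). The x axis is the distance in kb from the lower-coordinate end of the gene, grey marks the annotated gene, and the height of each stem is the fold enrichment over local background. Cdk14 and Cdk12 have no region in cKO libraries, while the Ccnd1 stem beyond the gene stands in every library, at 28.9 and 18.2 in cKO and 24.3 and 19.3 in WT.

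Of the other cell cycle cyclins, Ccna1, which encodes the germline-type cyclin A, had 0 and 0 regions in the cKO libraries and 3 and 3 in the WT libraries. Its WT-only regions had 7.15 and 7.91 at 17579 bp beyond the gene, and 8.06 and 4.59 at 668 bp from an end. Ccne1, a cyclin that activates Cdk2 at the start of S phase, had 2 and 1 regions in cKO and 2 and 1 in WT. Its site held by both cKO lists lay 36717 bp beyond the gene, with 6.99 and 4.66 in cKO and 6.29 in WT replicate 2 alone. The mitotic cyclin genes Ccnb1, Ccnb2 and Ccnb3, the S phase cyclin gene Ccna2 and the ubiquitin ligase subunit gene Ccnf had no region in any list. Ccne2 had a single 4.23-fold region in WT replicate 2.

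Among the 4 CDKs of the cell cycle, Cdk6, the partner of D-type cyclins, had WT-only regions, while Cdk1 and Cdk2 had no region in any list. Cdk6 had 0 and 0 regions in cKO and 3 and 4 in WT. Its 3 WT-only regions lay in the gene body. They had 7.01 and 9.93, 6.43 and 8.97, and 5.01 and 10.3 in WT replicates 1 and 2. Replicate 2 was the higher at all 3. The background was 1.14, 1.02 and 1.60 in WT replicate 1 and 2.32, 2.79 and 1.91 in WT replicate 2. The 1 added to reads and background lowers the folds of replicate 1 more, so the size of these gaps was not read. Cdk4, the other partner of D-type cyclins, had a 4.18-fold region in WT replicate 2, 391 bp before its listed start.

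Of the 7 INK4 and CIP/KIP inhibitor genes, 0 had a region in both WT lists, beside 18.3% of all genes, a share at which 0 of 7 is near the background. Cdkn1a, which encodes the p53-induced inhibitor p21, was the single one with a region in both cKO lists, from 29095476 to 29095736 on chromosome 17, with 7.09 and 6.31 in cKO and 4.67 in WT replicate 1. Cdkn1b, which encodes p27, a CIP/KIP protein known in cortical progenitors that leave the cell cycle, had a 4.26-fold region in WT replicate 1 whose summit lay 78 bp before its start. Cdkn2a had a 4.09-fold region in WT replicate 2, 185 bp before a listed start. Cdkn1c, Cdkn2b, Cdkn2c and Cdkn2d had no region in any list. Cdkn3 bears the Cdkn symbol but encodes a phosphatase that acts on CDKs. Its gene body held a region called in every library, with 7.85 and 7.51 in cKO and 7.01 and 6.36 in WT. Both cKO folds were above both WT folds, but the background was 2.95 and 2.86 in cKO and 1.14 and 1.83 in WT. The 1 added to reads and background lowers a fold more where the background is low, so this order was not read as a difference. From 30 and 28 reads at the summit in cKO and 14 and 17 in WT, the 95% Poisson intervals of the folds overlapped, at 5.38 to 11.1 and 5.08 to 10.7 in cKO and 4.04 to 11.4 and 3.85 to 9.97 in WT. Cdkn2aip and Cdkn2aipnl, whose names refer to a protein that binds the Cdkn2a product ARF, had no region in both lists of a genotype. Cdkn2aipnl had 5.57 in cKO replicate 1, 16 bp before its listed start, and regions of 4.67 and 6.11 in WT replicate 2, over 51 kb away.

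**Figure D3:**
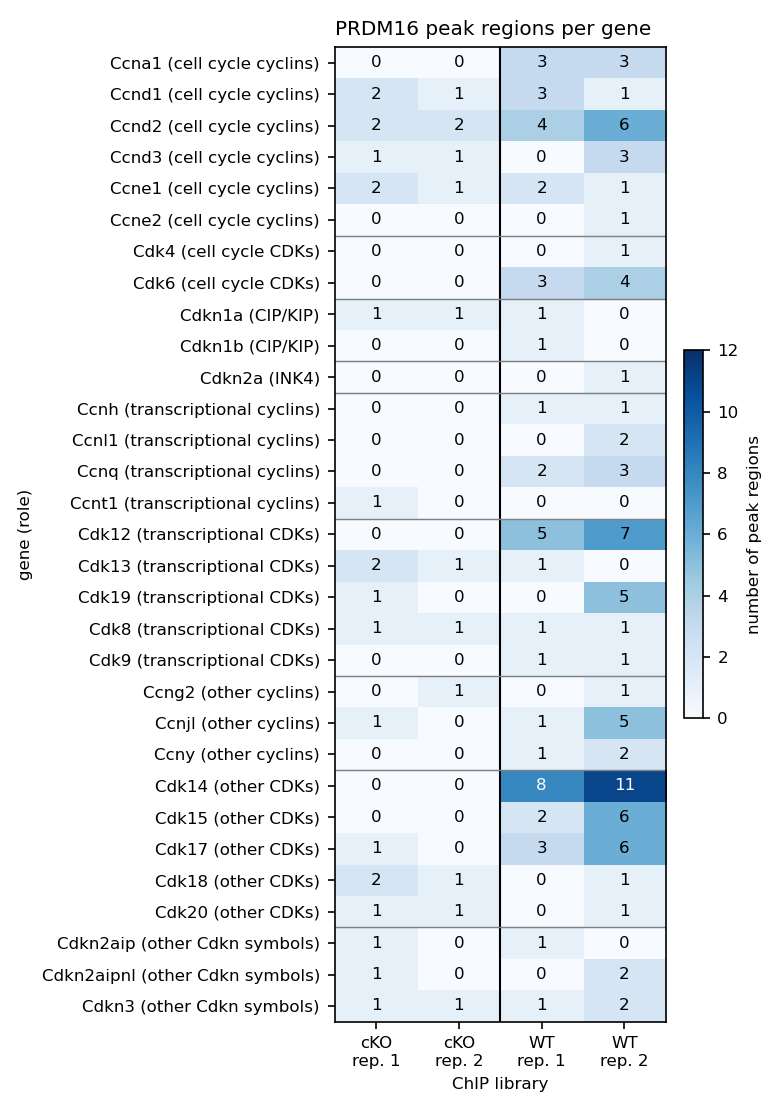
Number of peak regions (cell value and colour) for the 31 genes with a region in any list (rows, grouped by role) in each library (columns, cKO left of WT). Cdk14 has the most, with 0 and 0 in cKO and 8 and 11 in WT, and Ccnd1, Ccne1, Cdk8 and Cdkn1a show similar numbers in both genotypes.

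The WT-only region with the highest fold lay at Ccny, and the next at Cdk14. Cyclin Y, encoded by Ccny, brings Cdk14 and Cdk16 to membranes, where the Cdk14 complex phosphorylates the Wnt co-receptor Lrp6; Cdk14 and Cdk15 are PFTAIRE kinases and Cdk16, Cdk17 and Cdk18 PCTAIRE kinases. Of these and the related Ccnyl1, 4 of 7 genes had a WT-only region, beside 16.6% of all genes. The group was put together after the values were seen, and it includes long genes, Cdk14 at 577 kb and Ccny at 138 kb. The region at Ccny, 171 bp beyond the gene, had no cKO call and 54.7-fold and 83.0-fold enrichment in WT replicates 1 and 2, from 116 and 352 reads at the summit. It ranked 3 among the 9232 WT-only regions. Cdk14 had 0 and 0 regions in cKO and 8 and 11 in WT, and 7 WT-only regions, a number that 0.558% of protein-coding genes reached or passed.

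The strongest Cdk14 region, on chromosome 5 from 4814337 to 4815060, had 12.6 and 21.2 in WT replicates 1 and 2. Of the 7, 6 lay within 74117 bp of the lower-coordinate end, which is the far end from the listed start on the minus strand. The remaining one, with 8.06 and 11.1, lay 37330 bp into the gene from that start. The next-nearest gene to the strongest was Fzd1, a Wnt receptor gene, 56387 bp away, so assignment by distance does not show which gene a site acts on. Cdk15 had 0 and 0 regions in cKO and 2 and 6 in WT. Its WT-only regions had 12.5 and 12.9 in the gene body and 9.41 and 10.8 at 42332 bp beyond the gene. Cdk17 had 1 and 0 regions in cKO and 3 and 6 in WT. Its WT-only regions, both outside the gene, had 8.55 and 9.09 at 30301 bp and 6.75 and 7.03 at 24389 bp. Another Cdk17 site was called at 5.38 in cKO replicate 1, 197 bp beyond the lower-coordinate end, and at 5.72 in WT replicate 1, 162 bp beyond it. Cdk18 had 2 and 1 regions in cKO and 0 and 1 in WT. Its region 17914 bp beyond the gene was held by both cKO lists (3.90 and 3.997) and by WT replicate 2 (5.34). Cdk16 and Ccnyl1 had no region in any list.

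Among the genes of transcription, Cdk12 had WT-only regions and its close relative Cdk13 a region held by both cKO lists and neither WT list. Cdk12, which phosphorylates the tail of RNA polymerase II during elongation, had 0 and 0 regions in cKO and 5 and 7 in WT, and 4 WT-only regions. Of these, the one with the highest fold spanned 98282796 to 98284117 on chromosome 11, its summit 2892 bp past the gene, with 14.7 and 14.0 in WT replicates 1 and 2. Next to it a region 3310 bp beyond the gene had 6.16 and 8.27. The other 2 lay in the gene body, with 6.33 and 5.46, and 6.07 and 3.43. The next-nearest gene to the strongest was Neurod2, a proneural-family transcription factor gene of cortical neurons, 41422 bp away. Fzd1 and Neurod2 were named after the positions were seen. Cdk13 had 2 and 1 regions in cKO and 1 and 0 in WT. Its region held by both cKO lists lay at the promoter, and its WT region, 6.29-fold in replicate 1, lay 32705 bp beyond the gene. Cdk9, the kinase of the elongation factor P-TEFb, had one WT-only region 895 bp from an end, with 5.14 and 3.86.

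Cdk8, a kinase of the Mediator complex, had a region called in every library, from 146260875 to 146261454 on chromosome 5, with 4.03 and 3.15 in cKO and 6.65 and 2.09 in WT. The local background there was 26.8 and 34.2 reads in cKO and 19.2 and 64.2 in WT, many times the median background of each list; the part of this in the calls was not tested. Its paralogue Cdk19 had 1 and 0 regions in cKO and 0 and 5 in WT. The cKO region had 2.90-fold enrichment and the strongest WT region, in replicate 2, 9.32-fold. Ccnq, annotated as a 1.22 kb locus on chromosome 11, had 0 and 0 regions in cKO and 2 and 3 in WT. Its WT-only regions, at 8241 and 34433 bp from the gene, had 7.88 and 7.82, and 4.20 and 5.80. Ccnh, the cyclin of Cdk7, had 0 and 0 regions in cKO and 1 and 1 in WT, but the 2 WT regions lay at different places. Ccnjl, a cyclin J paralogue, had 1 and 0 regions in cKO and 1 and 5 in WT, and a WT-only region of 5.76 and 4.82. Cdk20 had a region held by both cKO lists within 487 bp of its lower-coordinate end, with 6.08 and 3.92 in cKO and 5.67 in WT replicate 2.

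**Figure D4:**
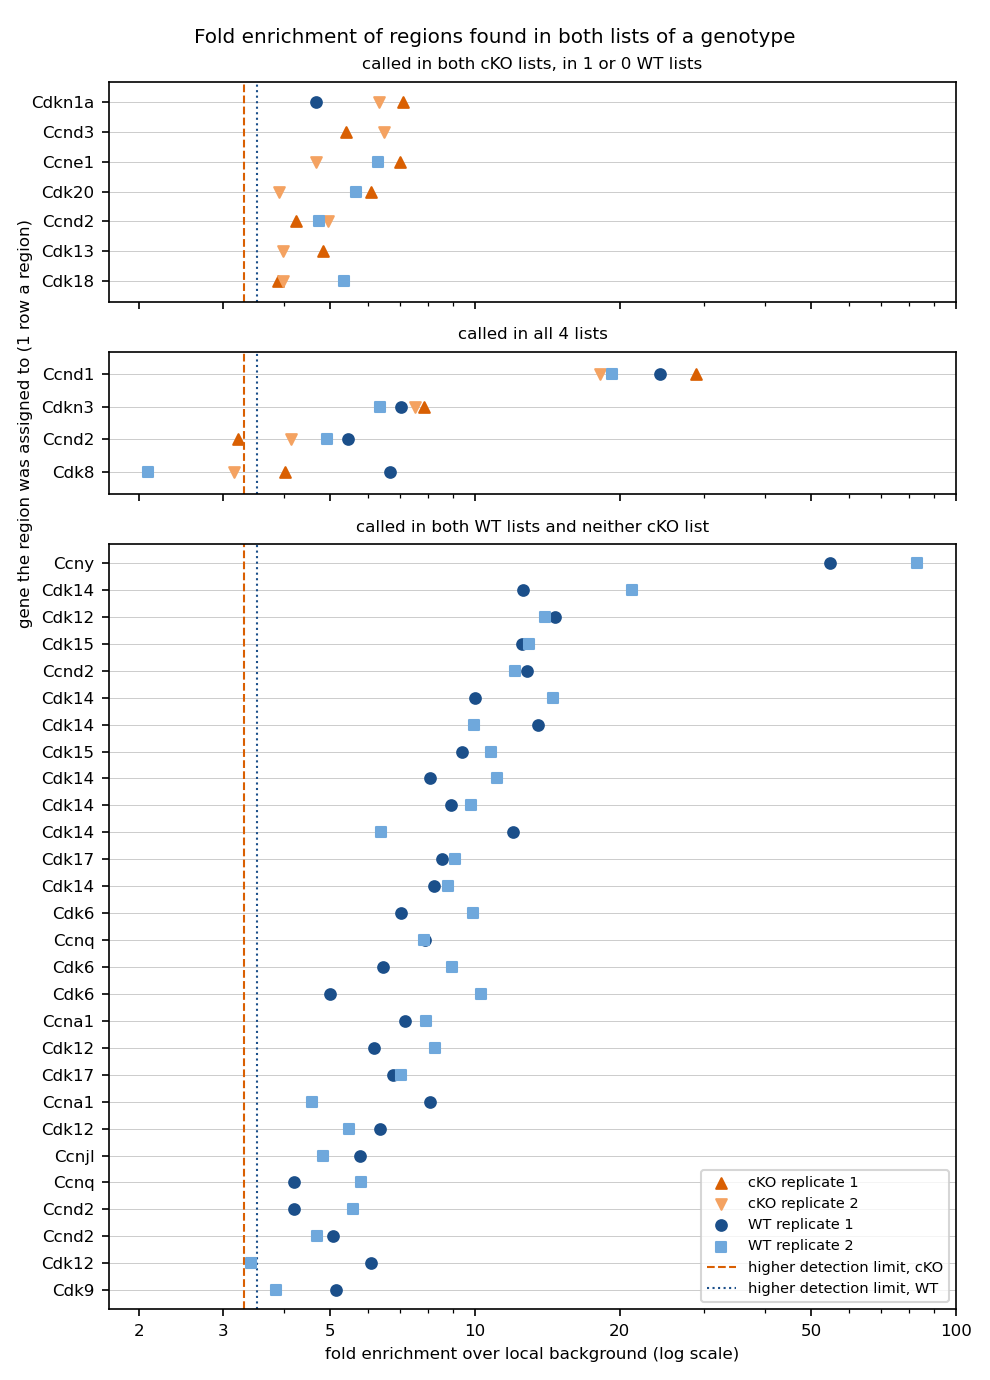
Fold enrichment over local background (x axis, log scale) of each region held by both lists of a genotype, 1 row a region, labelled with its gene. Triangles are cKO libraries, circles and squares WT libraries, and the vertical lines the higher of the 2 detection limits of each genotype (3.30 in cKO, 3.53 in WT). The 28 regions of the lowest panel have WT points only, from 3.43 at Cdk12 to 83.0 at Ccny.

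The promoter windows that could be matched were overlapped about as often as those of all genes. RefSeq windows of 300 bases, from 250 before to 50 after a listed start (GRCm38.p6, the mm10 assembly), were matched for 47 of the 56 genes, with 52 windows in all. The 9 genes without a window were Ccna2, Ccnd1, Ccnd2, Ccne2, Ccnh, Ccny, Cdk17, Cdk19 and Cdkn1c, so calls at their promoters were not counted. Among them, the strong WT-only region of Ccny overlapped the higher-coordinate end of the gene. Calls of cKO replicate 1 and WT replicate 1 lay just outside the lower-coordinate end of Cdk17. Regions of both cKO lists overlapped 1 of the 52 windows and regions of both WT lists overlapped 0, beside 2.19% and 1.92% of the 21262 windows of protein-coding genes. The 1 window was that of Cdk13, where the cKO summits lay 247 and 260 bp before the listed start, with 4.83 and 3.997 in cKO replicates 1 and 2 and no WT call. In Cdkn2aip a region overlapped the window in 1 library of each genotype, with 5.14 in cKO replicate 1 and 5.15 in WT replicate 1. The window of Cdkn1b was overlapped in WT replicate 1 alone. These 3 windows are shown to give the sequence under a cKO call, a call in both genotypes and a WT call; those of Cdkn2aip and Cdkn1b were chosen after the values were seen. Each reads 5′ to 3′ on the strand of its gene, with capitals for CCAAT, the motif of NF-Y, and GGGCGG, the GC box of Sp factors, on either strand. They lie at chr13:17805048-17805347 (minus strand), chr8:47713882-47714181 (minus strand) and chr6:134920151-134920450 (plus strand).
Cdk13: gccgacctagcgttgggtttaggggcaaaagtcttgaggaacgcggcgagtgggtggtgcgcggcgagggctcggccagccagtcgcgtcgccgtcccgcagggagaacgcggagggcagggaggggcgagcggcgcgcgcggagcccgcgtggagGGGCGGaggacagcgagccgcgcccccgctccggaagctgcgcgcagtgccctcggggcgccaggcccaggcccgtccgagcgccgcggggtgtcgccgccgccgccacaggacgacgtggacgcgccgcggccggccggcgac
Cdkn2aip: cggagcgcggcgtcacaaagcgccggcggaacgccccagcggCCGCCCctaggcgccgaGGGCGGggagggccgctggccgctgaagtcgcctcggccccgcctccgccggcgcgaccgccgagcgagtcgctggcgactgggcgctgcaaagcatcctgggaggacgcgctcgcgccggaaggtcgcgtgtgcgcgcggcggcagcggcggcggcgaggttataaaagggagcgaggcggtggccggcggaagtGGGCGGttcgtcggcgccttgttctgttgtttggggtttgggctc
Cdkn1b: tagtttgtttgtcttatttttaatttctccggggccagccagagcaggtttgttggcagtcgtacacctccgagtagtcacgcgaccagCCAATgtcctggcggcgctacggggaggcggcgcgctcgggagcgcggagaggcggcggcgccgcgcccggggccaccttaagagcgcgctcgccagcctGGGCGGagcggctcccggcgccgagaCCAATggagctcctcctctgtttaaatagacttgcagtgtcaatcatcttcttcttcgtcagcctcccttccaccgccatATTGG
All 3 are rich in G and C, at 78.3%, 75.0% and 62.0%. Cdk13 holds 1 GC box and no CCAAT, Cdkn2aip 3 GC boxes and no CCAAT, and Cdkn1b 1 GC box and 3 CCAAT, and none of these matches overlap. Among the 52 windows 25 held CCAAT (48.1%) and 41 held GGGCGG (78.8%), beside 38.2% and 46.2% of the 21262 windows. The E2F motif letters TTTCCCGC stood in 2 of the 52 (3.85%), those of Cdk2 and Cdkn2a, beside 1.41%, and TTTGGCGC in 0, beside 0.635%. TTTGAA, the cell cycle homology region, stood in 7 (13.5%), beside 16.0%, and the E-box CAGCTG in 5 (9.62%), beside 15.6%. These 4 were searched on both strands too, and none is in the 3 windows shown. The matches are a description of the letters and show no binding by any factor.

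The 28 WT-only regions lay inside genes about as often as all assigned WT-only regions. At these genes 3 were within 1 kb of a gene end (10.7%), 16 elsewhere in a gene body (57.1%), 4 at 1 to 10 kb (14.3%) and 5 at 10 to 100 kb (17.9%). Over all 7331 assigned WT-only regions the shares were 6.92%, 58.5%, 8.03% and 26.5%. The median of the mean WT fold was 8.16, beside 7.39 over all assigned. The lower WT fold exceeded both cKO detection limits at 28 of 28, beside 7251 of 7331 over all assigned. A call in both WT lists nearly fixes this. The 5th percentile of all folds was 4.22 and 3.58 in WT replicates 1 and 2, above the cKO limits of 3.18 and 3.30. Divided by 2, the lower WT fold exceeded both limits at 16 of 28 (57.1%), beside 43.8% over all. A weaker signal in the cKO could thus have been missed at the others. Of the 11 regions held by both cKO lists, 4 were called in all 4 libraries, 5 in 1 WT library and 2 in neither, and 2 of the 11 lay at gene ends (18.2%), beside 39.4% over all.

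The genes with WT-only regions were longer than the others, as over all genes. Their median length was 78.7 kb, against 11.96 kb for the 45 without, and over all protein-coding genes 65.9 kb against 14.3 kb. Per Mb of genome nearest to them, the 56 genes held 5.96 WT-only regions, beside 3.84 over all genes, and 7 of the 28 were those of Cdk14. Regions held by both cKO lists came to 2.34 per Mb, beside 0.848.

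In all, 20 of the 56 genes had a region in both lists of a genotype, 11 had regions in single lists only, and 25 had none. Genes with a region in any list made up 55.4% of the 56, beside 43.9% of all protein-coding genes. No share over all genes was computed for the split into both lists of a genotype and single lists. Besides those named, the 11 included Ccng2, Ccnl1 and Ccnt1. Ccng2 had 3.98 in cKO replicate 2 and 6.48 in WT replicate 2 at different places, Ccnt1, a P-TEFb cyclin gene, had 3.46 in cKO replicate 1 alone, and Ccnl1 had regions of 3.61 and 4.69 in WT replicate 2. The 25 also included Ccnb1ip1, Ccnc, Ccndbp1, Ccng1, Ccni, Ccnj, Ccnk, Ccnl2, Ccno, Ccnt2, Cdk7 and Cdk10. A 4.66-fold region of WT replicate 2 did overlap the promoter window of Ccni, but its summit lay closer to another gene. Replicates shared 11 of the 21 and 11 of the 12 regions in cKO, and 33 of the 45 and 33 of the 78 in WT.

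Other genes of the cell cycle were counted in 4 lists of 68 genes. WT-only regions were found at 15 of them (22.1%), beside 16.6% of all genes, and regions of both cKO lists at 5 (7.35%), beside 6.83%. Of 19 genes of the retinoblastoma, E2F and DREAM system 3 had a WT-only region. Lin52, a DREAM subunit gene, had the strongest, with 25.0 and 41.4 in the WT replicates, and Rb1, the retinoblastoma gene, had 10.5 and 9.17. Of 18 regulators of CDKs there were 5, among them Fbxw7, the ubiquitin ligase subunit that targets cyclin E, with 7.32 and 15.1. Of 20 replication and mitosis genes there were 3, Mcm3, Mki67 and Kif11, and of 11 mitogen and checkpoint genes 4, Myc, Mycn, Mycl and Chek2. Mycl also had a region in both cKO lists, with 9.78 and 5.01, while its strongest region of both WT lists had 5.88 and 5.43. The strongest Mycn region of both WT lists was also in 1 cKO list. Cdc20, E2f5 and Mdm2, named after their values were seen, had a region in both cKO lists and none in the WT lists. Over all genes, 3.43% had a region of both cKO lists that neither WT list held. Cdk5, the neuronal CDK kept apart from the 56 genes, had 0 and 0 regions in cKO and 1 and 1 in WT, with 6.68 and 6.33, and its activator gene Cdk5r1 had a region in every library, with 5.47 and 6.65 in cKO and 7.01 and 5.004 in WT.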

How the data were processed

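Peak lists of the 4 PRDM16 ChIP libraries, from chromatin fixed with paraformaldehyde and EGS and sonicated per the labels' protocols, were used; the input libraries were not analysed here. Reads were processed with FastQC, cutadapt, Bowtie2 2.2.8 and MACS2 2.1.1 on mm10, per the submitters' processing notes, without settings. The authors deposited 1 list per library, with the fold over local background, a ratio, and the −log10 of the p-value and q-value of each peak; the deposited score column was not used. Which input served as control has no record in these labels or headers. Fold enrichments are the authors' values and describe peaks. In each fold, the peak caller adds 1 to the reads at the summit and 1 to the background.

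Lines off the assembled chromosomes were dropped, 37 and 19 in cKO and 12 and 14 in WT. No lines of a list overlapped. Regions with at least 1 bp in common were joined, and the strongest summit set the gene; a summit in several genes counted for each. Reads at the summit, searched as whole numbers, and background were solved from fold and p-value. The solution came within 0.0001 of the −log10 p-value for 99.83% to 99.96% of regions of the 4 lists. The solving was also tested on simulated lists. Their reads at the summit were all above the WT medians around these genes, 13 in replicate 1 and 17.5 in replicate 2, so lower values were not covered. Poisson intervals are exact, at 95%. Python 3.11.15, pandas 2.3.3 and scipy 1.17.1 were used.

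Genes with regions in both WT lists or a cKO list were named, the 12 strongest in full. The members, gene lists and motifs were chosen with earlier results of these data known.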

Additional observations from a re-analysis of the deposited data

How the results depend on the processing

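Of 70 values recomputed under other settings, 57 were labelled the same, 12 moved and 1 reversed. Counts were held to 1.5 times, and the ratio around these genes to 0.130, the SD of the 4 ratios of 1 cKO to 1 WT library. The ratio over all regions was held only to its direction and to p under 0.05, which these libraries cannot reach, so its size was not compared. Some settings could change nothing, such as each line taken as its own peak, as no lines overlapped. The 57 is thus no measure of robustness. With lists of equal length the cKO over WT ratio of regions around these genes was 1.42, and 5 genes had a WT-only region (Ccnd2, Ccny, Cdk12, Cdk14 and Cdk15), with 7 regions, and 6 had a region in both WT lists; the shorter lists drop weaker regions by construction. At a fold of at least 5, 4 genes had a region in both cKO lists. Counting gene bodies only left 6 genes with a WT-only region, with 16 regions, 6 with a region in both cKO lists and 8 with one in both WT lists. Leaving out 1 library at a time gave 11 to 21 genes with a WT-only region, 28 to 69 such regions, 14 to 26 genes in both WT lists and 10 to 16 in both cKO lists. The high ends came without WT replicate 1 (21, 69 and 26) and without cKO replicate 2 (16), where the longer list stands alone. For the counts under these other settings no share over all protein-coding genes was computed. A change at these genes thus cannot be told from the same change over all genes. The ratio was 0.195 to 0.367 around these genes and 0.143 to 0.276 over all regions. With the replicate number as a block, it was 0.268 and 0.195, exact permutation p = 0.5 over all regions, the smallest that 2 pairs allow. Deviations of same-numbered libraries correlated at -0.0431 across 9609 genes, which are not independent replicates; the labels give no pairing, and none was used. For the counts of genes and regions no paired fit was made, as they join both replicates. Peak lists limit the depth: a region not called is not shown to be absent.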
